A study of Mus musculus with 24 samples.

Results

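Liver RNA of 12 mice fed a methionine-restricted diet (MR) was compared between the 6 mice killed 6 h after the diet began and the 6 killed after 3 h. These 12 libraries, taken by the diet and hour in their column names, are part of a study of 24. The other 12 libraries, 6 from mice fed the control diet (Con) for 6 h and 6 from mice fed Con for 3 h, were used to ask which changes with time on MR were shared with time on Con. All 24 were male C57BL/6J mice 2 months old, housed in a reversed light cycle and adapted to Con, whose food was removed at lights on and given back, as MR or Con, at lights off. The MR mice made up a 6 h and a 3 h group, as did the Con mice, with 0.17% methionine in MR and 0.86% methionine in Con. Neither diet held cystine, and MR held more glutamic acid than Con. Since every mouse was given food at the same clock hour, hours on the diet, hours since refeeding and clock hour cannot be told apart within a diet, and only the comparison with Con separates the diet from the other 2. The RNA came from whole liver, so fewer cells of a type and less RNA per cell cannot be told apart.

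Methionine starts nearly every protein and, as S-adenosylmethionine, gives the liver its methyl groups, and through the trans-sulfuration pathway it supplies the cysteine for glutathione and taurine. When an amino acid runs short, uncharged tRNA activates the kinase GCN2, which phosphorylates the initiation factor eIF2. General translation then slows while the mRNA of the transcription factor ATF4 is translated better, and ATF4 turns on genes for amino acid synthesis and transport, tRNA charging and feedback control, a program called the integrated stress response. Refeeding after a fast acts on the liver in the same hours through insulin, sterol and fatty acid synthesis, growth of the ribosome pool and the resetting of clock genes, and core body temperature and heat shock genes also follow the daily cycle.

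Levels are in the units of the score that was deposited, after scaling. Each library holds 991702 to 995314 of these units before scaling, over the same 9049 genes, and read depth is unknown. For genes described by mouse, the 3 values of a group are its lowest, median and highest of 6 mice. Changes are log2 fold changes of the scaled value plus 1, which understate the change of low genes, each with its standard error and an adjusted p from limma over all 9049 genes. A gene is said to have risen or fallen with time only where that adjusted p was under 0.05. Median levels of different genes are not compared, since reads from 3′ ends do not measure all transcripts alike.

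All 10 hepatocyte markers were measured in every library, and markers of islet, lymphocyte, neutrophil and kidney were not among the genes of the table. Libraries of 2 MR mice stood apart. In mouse m4223, on MR for 3 h, the 14 measured markers of the exocrine pancreas summed to 2388 units, with 341 units of Ctrb1 and 222 units of Pnlip. The pancreas sums of the other MR mice at 3 h were 372 to 437 units, nearly all of it Amy1 and Cela1, and Prss2, Cpa1 and Pnlip were at 0 in them. The pancreas sums were 417 to 503 units at 6 h on MR, 363 to 495 units at 6 h on Con and 357 to 456 units at 3 h on Con. In mouse m4214, on MR for 6 h, the 11 measured markers of the adrenal cortex summed to 980 units, with 210 units of Hsd3b1, 82.4 units of Star and 72.6 units of Cyp11a1. The adrenal sums of the other MR mice were 473 to 507 units at 6 h and 552 to 669 units at 3 h, with Cyp11a1 at 0 in each. Counts are therefore also given without m4223 and m4214. On Con at 6 h, mouse m4238 had a Kupffer cell and macrophage sum of 1657 units, while the other 5 had 624 to 833 units, and this mouse enters the change on Con and the shared estimate of spread. It also lay at −41.27 on the second principal component of all 24 libraries, where the next lowest mouse was at −4.806. Its median correlation with its own group, 0.962, was the lowest of the study. The stellate cell and fibroblast sum of m4238 was 751 units, against 413 to 516 units in the other 5. None of its 14 pancreas markers was at 0, with Ctrb1 at 4.565 units, whereas 12 were at 0 in each of the other 5. Of the 16 Kupffer cell and macrophage markers, 1 fell and 0 rose on MR. Of the 2 measured genes on the adipose list, Car3, which hepatocytes of male mice also express, was 6183, 6702 and 9357 units at 6 h on MR against 1389, 2257 and 3703 units at 3 h on MR, whereas the median of Fabp4 was 21.8 units at 6 h on MR and 32 units at 3 h on MR. On Con, Car3 had 3854, 4998 and 6434 units at 6 h and 1617, 3720 and 4966 units at 3 h, a change that did not pass. The part of these signals in the results was tested only by leaving out mice, as given with the counts.

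Within MR, 1260 genes were higher and 1284 lower at 6 h than at 3 h, which is 13.9% and 14.2% of the table and 28.1% together. In 1405 genes, 15.5% of the table, the 6 mice at 6 h and the 6 at 3 h did not overlap, and for such a gene the exact permutation test of the 12 mice (two-sided) gives p = 0.00216, the smallest it can reach. On Con, 835 genes were higher (9.23%) and 939 lower (10.4%), 19.6% together. These shares are the background for the counts of every list below. A change of at least 1 on the log2 scale was reached by 97 genes that rose and 42 that fell on MR, against 35 and 23 on Con. The first principal component of the 12 MR libraries held 45.1% of their variance and separated the hours.

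Much of the change on MR was also seen on Con. Of the 2544 genes that changed on MR, 1302 (51.2%) passed the test on Con too, every one of them in the same direction, 607 higher and 695 lower. They were 73.4% of the 1774 genes that changed on Con. A further 1242 genes passed on MR and not on Con, 472 passed on Con and not on MR, and of all genes that passed on MR 96.4% had the same sign on Con, against 77.4% of all genes. Across the 9049 genes, which are not independent replicates, the changes on MR and on Con had a Pearson correlation of 0.79. The genes that changed on MR had a median absolute change of 0.36 on MR and 0.26 on Con.

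A pass on MR and not on Con does not show that the diets differ, so the difference between the 2 changes with time was tested itself. It passed in 6 genes (0.0663% of the table), Trib3, Sesn2, Ikbkg, Mars, Eif4ebp1 and Cars, all of which rose more on MR. No gene passed in the other direction, and 618 genes had an unadjusted p under 0.05. Of the 1242 genes that passed on MR and not on Con, 4 are among the 6 and the other 1238 (649 higher and 589 lower) remain undecided between shared and not shared. The width of the intervals limits this test: the 95% interval of a change had a median half-width of 0.18 on MR and 0.26 for the difference between diets. For 1748 of the 2544 genes that changed on MR, the whole interval of the difference lay within 0.5 on the log2 scale of 0.

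**Figure D1:**
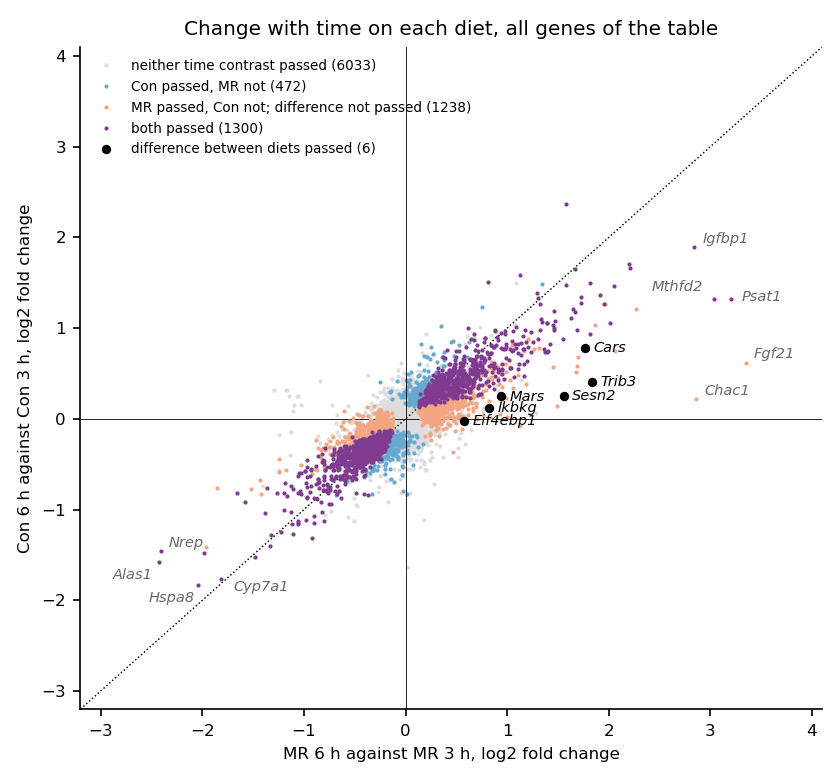
Change with time on each diet for all 9049 genes. The horizontal axis is the log2 fold change at 6 h against 3 h on MR and the vertical axis the same on Con; each point is a gene, the dotted line marks equal change, and colours give which tests passed, with the number of genes in brackets. The 1300 purple genes passed on both diets without a called difference and lie around the line, and the 6 black genes, whose difference passed, lie to its right.

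Without m4223 and m4214, 1095 genes were higher and 1106 lower on MR, and 2127 of the 2544 genes passed again while 74 others were added. Both diets then shared 1148 genes, 534 higher and 614 lower, again all in the same direction. The difference between diets passed for 2 genes, Trib3 and Sesn2. With m4238 left out as well, the counts on MR were 1285 higher and 1231 lower, 1437 genes passed on both diets, and the same 2 genes passed for the difference. In that last count 1 gene passed in opposite directions on the 2 diets.

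Of these 6 genes, 5 were on the list of ATF4 targets. Promoters of that list and of other sets were searched for the DNA word that ATF4 is known to bind, a search not prompted by the 6 genes. ATF4 binds as a heterodimer with a C/EBP factor to a CARE, the C/EBP-ATF response element, searched for here as TGATGNAA on both strands from 250 bases before to 50 bases after each RefSeq gene start on GRCm38.p6. It was found in 11 of the 29 promoters that could be matched for the 34 measured genes of the ATF4 list (37.9%), and in 4.51% of all 27025 genes with a promoter, in 2.77% of the 7282 matched genes of the table, in 4.89% of the matched genes that rose on MR and in 2.11% of those that fell. Of the 6 genes whose difference passed, 4 were matched and 1, Trib3, held the word. The stretches below come from 5 genes of the list that rose on MR, 5′ to 3′ along the gene, with the word or its reverse complement in capitals.
Trib3, chr2:152344031-152344054, minus strand: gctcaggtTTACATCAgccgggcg
Chac1, chr2:119351041-119351064, plus strand: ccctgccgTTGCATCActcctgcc
Fgf21, chr7:45615614-45615637, minus strand: cccccccaTTGCATCAtccgtcca
Asns, chr6:7693217-7693240, minus strand: cagccacaTGATGAAActtcccgc
Aars, chr8:111033722-111033745, plus strand: cttgagcaTTGCATCAgccgagcc
Such a match describes the letters of the genome and is not a measured binding site. The list was put together from ATF4 targets, so the share in it describes the choice of list and not the changes with time.

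Gene coordinates in brackets are those of RefSeq on GRCm38.p6. Trib3 (chr2:152337425-152344060) encodes a pseudokinase that binds ATF4 and AKT and is itself an ATF4 target. Its lowest, median and highest levels were 9.73, 12 and 14.3 units at 6 h on MR, 1.96, 2.92 and 3.04 units at 3 h on MR, 3.02, 4.07 and 4.57 units at 6 h on Con and 2.02, 2.92 and 2.99 units at 3 h on Con. The mice on MR for 6 h all lay above the 18 other mice, and both groups at 3 h covered nearly the same range. On Con the lowest mouse at 6 h (3.02 units) and the highest at 3 h (2.99 units) were not apart. Their gap is far smaller than the steps of about 1 unit in which such low values move. Trib3 rose by 1.83 (standard error 0.11, adjusted p = 7.78e-11) on MR and by 0.41 (standard error 0.11, adjusted p = 0.0108) on Con, and the difference of 1.43 (95% interval 1.11 to 1.75) had an adjusted p of 2.05e-05.

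Sesn2 (chr4:132492804-132510456) encodes Sestrin2, which restrains the growth kinase complex mTORC1 when leucine is low. Its levels were 5.89, 7.46 and 10.1 units at 6 h on MR, 1.01, 2 and 2.89 units at 3 h on MR, 2.04, 3.03 and 4.11 units at 6 h on Con and 1.94, 2.04 and 2.96 units at 3 h on Con. Again no other mouse reached the lowest of the mice on MR for 6 h, while the other 3 groups overlapped. The rise was 1.56 (standard error 0.15, adjusted p = 1.09e-07) on MR, the change of 0.25 on Con did not pass (adjusted p = 0.251), and the difference was 1.3 (95% interval 0.86 to 1.75, adjusted p = 0.0103). Both Trib3 and Sesn2 are low in the table, where values move in steps of about 1 unit.

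Eif4ebp1 (chr8:27260327-27275656) encodes 4E-BP1, which holds back cap-dependent translation by binding eIF4E. In MR mice its levels were 80.7, 92.2 and 109 units at 6 h and 56.5, 62.2 and 65.5 units at 3 h, and in Con mice 52, 56.4 and 69.1 units at 6 h and 53.5, 59.5 and 67.8 units at 3 h. All 6 mice on MR for 6 h stood above every other mouse, and the Con groups lay over each other. The change was 0.58 (standard error 0.08) on MR and −0.02 (standard error 0.08) on Con, a difference of 0.6 (95% interval 0.36 to 0.83, adjusted p = 0.0396).

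The remaining 3 genes include 2 cytosolic tRNA synthetases, which load tRNA with methionine (Mars, chr10:127296221-127311786) and cysteine (Cars, chr7:143557230-143600090). Mars had 44.7, 50.1 and 62.5 units at 6 h on MR, 23.3, 26.3 and 29.2 units at 3 h on MR, 24.6, 33 and 35.6 units at 6 h on Con and 23.7, 26.1 and 28.7 units at 3 h on Con. Cars had 37, 44.1 and 58.2 units at 6 h on MR, 10.8, 13.5 and 15.1 units at 3 h on MR, 15.6, 25.1 and 26.4 units at 6 h on Con and 10.7, 11.5 and 15.6 units at 3 h on Con. For both genes the mice on MR for 6 h were above all others. On Con the hours overlapped for Mars and met at 15.6 units for Cars. Cars rose on both diets, by 1.77 on MR (standard error 0.14, adjusted p = 3.47e-09) and by 0.78 on Con (standard error 0.14, adjusted p = 2.9e-04), with a difference of 0.99 (adjusted p = 0.0481). Mars rose by 0.94 on MR (standard error 0.09, adjusted p = 1.07e-07), its change of 0.25 on Con missed the threshold (adjusted p = 0.0596), and the difference was 0.7 (adjusted p = 0.0364). Mars shares 68 bases of the opposite strand with Ddit3, which moved the other way, by −0.41 on MR and −0.82 on Con. Ddit3 was singled out after its values were seen, because of this overlap.

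Ikbkg (chrX:74393233-74456792), which encodes NEMO, the regulatory subunit of the kinase that frees NF-κB, is the only one of the 6 that was not on the ATF4 list. It had 30.7, 33.7 and 36.4 units at 6 h on MR, 15.6, 18.8 and 21.2 units at 3 h on MR, 17.4, 21.2 and 23.6 units at 6 h on Con and 16.9, 19.1 and 22.4 units at 3 h on Con, again with no overlap between the mice on MR for 6 h and the rest. It rose by 0.83 (standard error 0.08, adjusted p = 1.7e-07) on MR, against 0.12 (adjusted p = 0.334) on Con, a difference of 0.71 (adjusted p = 0.0103). Ikbkg shares 19712 bases with G6pdx on the opposite strand. The strand setting of the counting is not given in the sources used here, so reads of the pair may not be told apart. G6pdx, also singled out for this overlap, changed by 0.3 on MR (adjusted p = 0.226) and 0.17 on Con (adjusted p = 0.521).

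**Figure D2:**
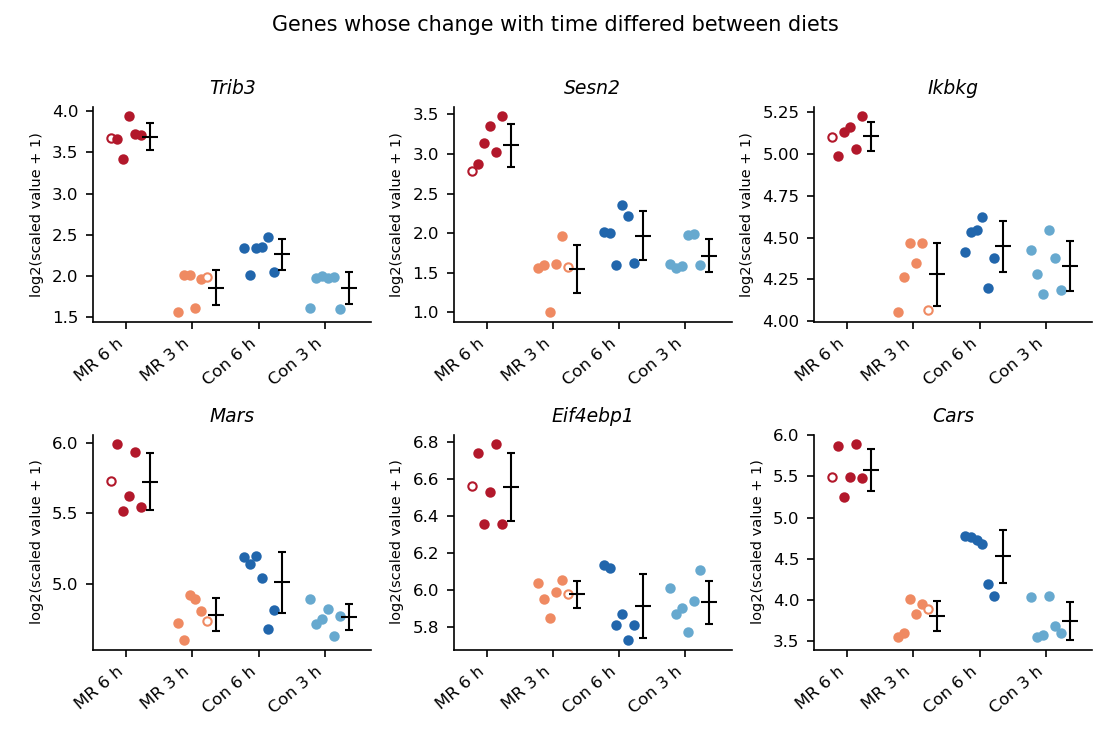
Levels of the 6 genes whose change with time differed between the diets. The vertical axes give log2 of the scaled value plus 1 in units of the score and differ between panels; each point is a mouse, hollow points are m4214 (MR 6 h) and m4223 (MR 3 h), and the bar beside each group is its mean with the standard deviation of 6 mice. In each panel the 6 mice on MR for 6 h lie above all 18 others, and the hollow points lie among their groups.

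Leaving out m4223 and m4214 kept the differences at nearly the same size but lost most of the calls. Trib3 and Sesn2 passed still, with differences of 1.46 and 1.37. The adjusted p of Ikbkg became 0.0548 (range over all alternatives 0.00567 to 0.0786), that of Mars 0.116 (0.0132 to 0.178), that of Eif4ebp1 0.116 (0.0176 to 0.186) and that of Cars 0.116 (0.0216 to 0.186). On MR itself all 6 rose in every alternative that tested them; Trib3 and Sesn2 lie below the mean minimum of 10 units in 1 of these.

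The rest of the ATF4 list rose broadly with time on MR. Of its 34 measured genes (44 listed), 28 rose and 2 fell on MR, against 9 that rose and 2 that fell on Con, and its median change was 0.72 on MR and 0.21 on Con, where the median of all genes was −0.01 on both. The list includes genes the study itself named as ATF4 targets from these mice, and 5 of the 6 genes above, so its counts are no independent evidence of a direction. Without m4223 and m4214, 27 rose and 1 fell. The transcript of Atf4 itself, whose protein is controlled mainly by translation, changed by 0.29 on MR (adjusted p = 0.224) and −0.07 on Con (adjusted p = 0.802). Atf3, Cebpb and Ppp1r15a also did not pass on MR. The 2 that fell on MR were Ddit3 and Wars, the tryptophanyl-tRNA synthetase.

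The 4 largest rises on MR of the genes named, those of Fgf21, Psat1, Mthfd2 and Chac1, were on this list, yet none of these passed the test of the difference. Fgf21 (chr7:45613890-45615490), a hormone the liver releases when protein or sulfur amino acids are short, had 40.2, 113 and 158 units at 6 h on MR, 1.96, 9.96 and 36.6 units at 3 h on MR, 4.16, 9.66 and 25.4 units at 6 h on Con and 1.01, 3.89 and 23.7 units at 3 h on Con. The mice on MR for 6 h were above all others, but mice of the other 3 groups scattered widely. Fgf21 rose by 3.35 on MR (standard error 0.64, adjusted p = 4.14e-04), 10.2-fold on this scale, and changed by 0.62 on Con (adjusted p = 0.529). The 95% interval of its difference, 0.85 to 4.6, lay above 0, but its adjusted p was 0.512.

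Chac1 (chr2:119351242-119354326), whose product breaks down glutathione, had 8.47, 26.1 and 61.7 units at 6 h on MR, 0.978, 2.99 and 6.74 units at 3 h on MR, 1.01, 1.43 and 6.11 units at 6 h on Con and 0, 1.97 and 5.06 units at 3 h on Con. Its mice on MR for 6 h did not overlap with any other group, and only on MR was a change with time called: 2.86 (standard error 0.5, adjusted p = 1.67e-04), against 0.22 on Con (adjusted p = 0.799) and an adjusted p of 0.272 for the difference of 2.65 (95% interval 1.18 to 4.11). Ddit4, whose product REDD1 inhibits mTORC1, had 19.1, 54.4 and 76.9 units at 6 h on MR, 10.2, 17 and 21.2 units at 3 h on MR, 12.8, 18.8 and 22.6 units at 6 h on Con and 11.1, 14.9 and 22.9 units at 3 h on Con. The lowest mouse on MR for 6 h lay inside the range of the other groups, and the other 5 lay above. Ddit4 rose by 1.49 on MR (adjusted p = 1.42e-04) against 0.15 on Con (adjusted p = 0.736), with an adjusted p of 0.275 for the difference (range over the alternatives 0.019 to 0.632). Without m4219, on MR for 6 h, the difference of Ddit4 was 1.6 and passed (adjusted p = 0.019).

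Some genes for the synthesis of serine, one-carbon units and asparagine also rose on MR. Psat1 (chr19:15905123-15925059), an aminotransferase of serine synthesis, had 11.7, 20.9 and 46 units at 6 h on MR, 0.978, 1.47 and 2.02 units at 3 h on MR, 1.04, 5.62 and 10 units at 6 h on Con and 0.972, 1 and 2.05 units at 3 h on Con. Mthfd2, a mitochondrial enzyme of the folate cycle, had 14.6, 24.4 and 57.2 units at 6 h on MR, 1.96, 2.03 and 3.85 units at 3 h on MR, 2.08, 7.66 and 9.16 units at 6 h on Con and 0.972, 1.98 and 4.09 units at 3 h on Con. Asns (chr6:7675165-7693209), which makes asparagine, had 13.6, 22.3 and 55.1 units at 6 h on MR, 2.93, 4.58 and 8.66 units at 3 h on MR, 4.16, 11.2 and 14.6 units at 6 h on Con and 2.92, 4.44 and 10.2 units at 3 h on Con. In all 3 genes the MR groups did not overlap; for Psat1 and Mthfd2 the mice on MR for 6 h were above every Con mouse, and for Asns the lowest of them was below the highest Con mouse at 6 h. The rises on MR were 3.21 for Psat1, 3.04 for Mthfd2 and 2.06 for Asns. On Con, Psat1 rose by 1.32 (adjusted p = 0.0046) and Mthfd2 by 1.32 (adjusted p = 0.00279), while the 0.75 of Asns did not pass (adjusted p = 0.155). The differences had adjusted p-values of 0.259, 0.272 and 0.645. Of the 12 measured genes of serine, one-carbon and asparagine synthesis, 6 rose and 1 fell on MR, against 3 and 0 on Con. Psat1, Psph, Shmt2, Mthfd2 and Asns are also on the ATF4 list, so their rises are counted in both lists. Psph, the last enzyme of serine synthesis, rose by 1.07 on MR, and Shmt1 by 0.42, where the 0.18 on Con did not pass (adjusted p = 0.235).

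**Figure D3:**
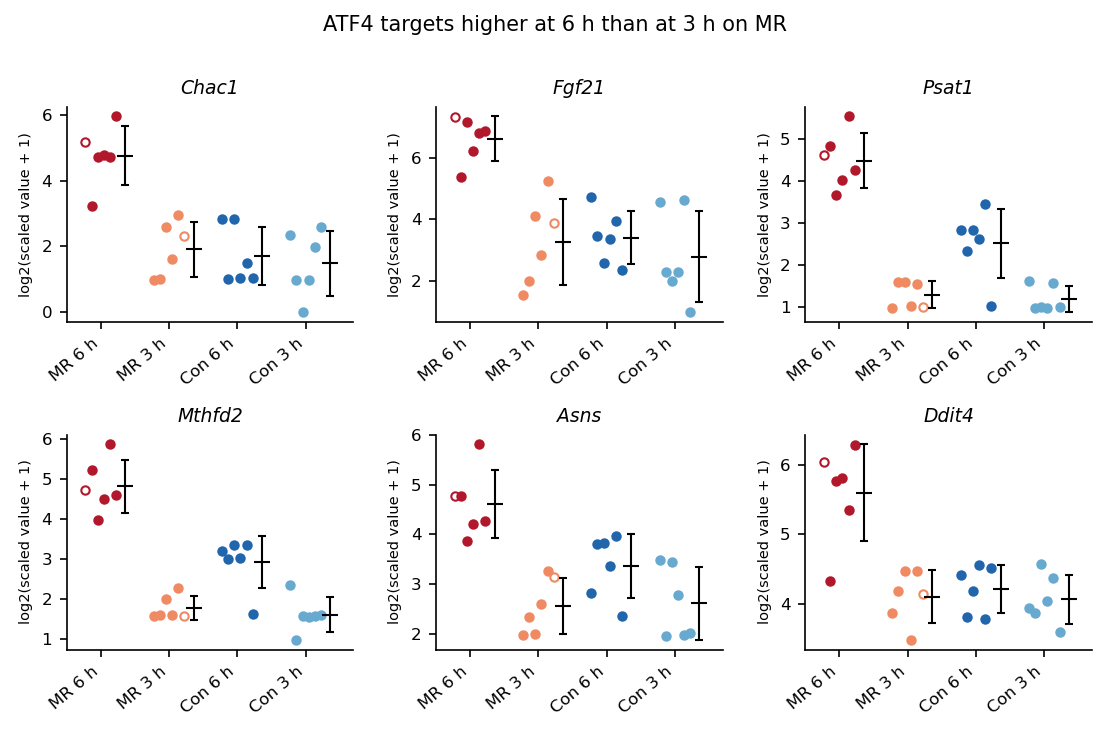
Levels of 6 genes of the ATF4 list that rose on MR and whose difference between diets did not pass. Axes, points and bars are as in the plot of the 6 genes whose difference passed. The mice on MR for 6 h lie highest in each panel, apart from the lowest Ddit4 value and the lowest Asns value, and Psat1 and Mthfd2 are also higher at 6 h than at 3 h on Con.

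Other regulators on the list moved with them. Atf5, a transcription factor close to ATF4, rose by 1.82 on MR and 0.94 on Con. Gadd45a, a growth arrest gene, had 17.2, 18.2 and 23.3 units at 6 h on MR, 5.06, 8.12 and 13.8 units at 3 h on MR, 5.2, 9.21 and 15.1 units at 6 h on Con and 6.07, 10.8 and 18.8 units at 3 h on Con. The MR groups did not overlap and the Con groups did. Its change was 1.12 on MR and −0.08 on Con (adjusted p = 0.838), with an adjusted p of 0.272 for the difference. Atf5 shares bases of the opposite strand with Nup62.

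Of 23 measured cytosolic tRNA synthetases and their cofactors, 10 rose and 4 fell on MR, against 4 and 3 on Con, and without m4223 and m4214 10 rose and 3 fell. Aars, Cars, Gars, Iars, Lars, Mars, Nars, Sars, Tars and Wars are also on the ATF4 list. All of these but Wars rose on MR, so these rises are counted in both lists. Beside Cars and Mars, the rises included Aars for alanine (0.82 on MR, 0.2 on Con), Lars for leucine (0.73 and 0.27) and Sars for serine (0.71 and 0.27). The rise of Aars on Con did not pass (adjusted p = 0.227). Farsa, Rars, Wars and Eef1e1 fell on MR. Aars shares bases of its strand with Exosc6, so reads there may belong to either.

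Among 19 measured amino acid transporters, 9 rose and 2 fell on MR, against 5 and 0 on Con. Slc38a2, which carries small neutral amino acids into the cell and is an ATF4 target, had 51.9, 72.3 and 90 units at 6 h on MR, 40.3, 44 and 48.1 units at 3 h on MR, 31, 39.9 and 42.8 units at 6 h on Con and 29.1, 41.2 and 45.5 units at 3 h on Con. All 6 mice on MR for 6 h were above all others, and the Con groups overlapped. The rise was 0.7 on MR (standard error 0.11, adjusted p = 4.31e-05), against 0.00 on Con, and the difference had an adjusted p of 0.178, with a range of 0.018 to 0.398 over the alternatives. Slc1a4, a carrier of alanine, serine and cysteine, rose on both diets, by 2.01 on MR and 1.06 on Con. Slc43a1, a carrier of large neutral amino acids, fell on MR (−0.79), and its change of −0.28 on Con did not pass (adjusted p = 0.133).

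Of the 27 methionine-cycle and trans-sulfuration genes measured, 8 rose and 6 fell on MR, where 28.1% of all genes passed, against 5 and 3 on Con. Of the 14 called on MR 8 were shared with Con, near the 51.2% of all genes called on MR, and 6 rose and 4 fell on MR without m4223 and m4214. Cbs (chr17:31612623-31637233), the first enzyme of trans-sulfuration, had 298, 334 and 444 units at 6 h on MR, 115, 175 and 217 units at 3 h on MR, 246, 262 and 300.3 units at 6 h on Con and 141, 166 and 194 units at 3 h on Con. On both diets the mice at 6 h were above those at 3 h without overlap. Cbs rose by 0.99 (standard error 0.12) on MR and 0.68 (standard error 0.12) on Con, and the interval of the difference, −0.03 to 0.66, included 0. Ethe1 and Suox, which oxidise sulfur in mitochondria, rose on MR by 1.02 and 0.42 and on Con by 0.65 and 0.33. Ahcyl2, a relative of the enzyme that splits S-adenosylhomocysteine, changed by −0.99 on MR and −0.57 on Con.

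Among glutathione genes and targets of NFE2L2, the transcription factor of the oxidative stress response, those that passed were mostly higher at 6 h. Of the 17 measured glutathione genes 7 rose and 0 fell on MR, against 4 and 2 on Con, and of the 28 measured NFE2L2 targets 15 rose and 0 fell on MR, against 12 and 1 on Con. Gclc (chr9:77754535-77794489), the catalytic subunit of the rate-limiting enzyme of glutathione synthesis, had 284, 352 and 362 units at 6 h on MR, 82.1, 123 and 132 units at 3 h on MR, 187, 255 and 289 units at 6 h on Con and 100.1, 137 and 164 units at 3 h on Con. Neither diet's groups overlapped. The rise was 1.55 on MR (standard error 0.12, adjusted p = 3.47e-09) and 0.88 on Con (standard error 0.12, adjusted p = 1.9e-05), and the adjusted p of the difference was 0.272, with a 95% interval of 0.33 to 1.02. Its modifier subunit Gclm rose by 0.44 on MR and 0.34 on Con, and glutathione reductase, Gsr, by 0.34 and 0.27. Chac2, which turns glutathione over slowly, rose by 0.41 on MR and 0.22 on Con but overlaps Asb3 on the opposite strand. Gstm4, which has near-identical relatives that can share reads, rose by 0.94 on MR and 0.78 on Con.

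**Figure D4:**
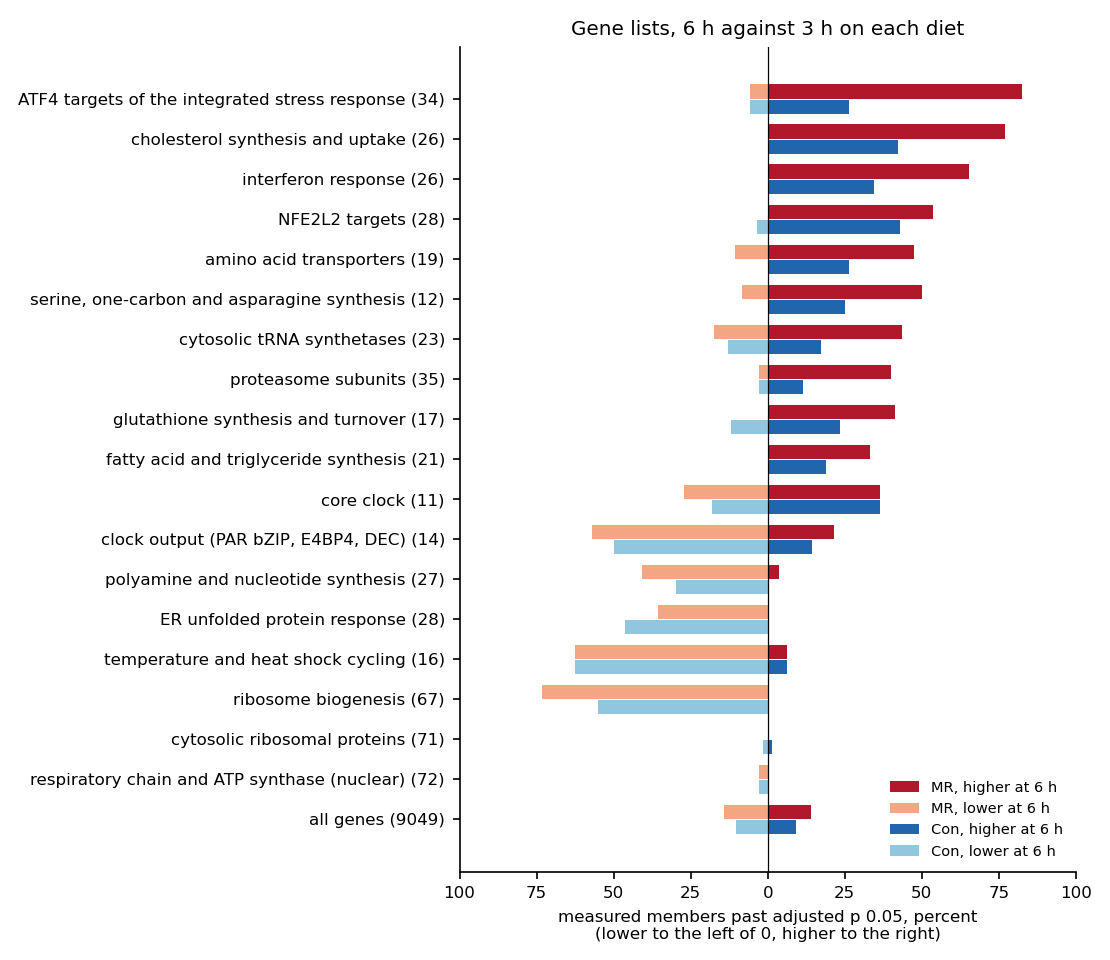
Share of the measured genes that passed the test with time, for a selection of the 39 lists. Many lists near the share of all genes, such as fatty acid oxidation and splicing factors, are not shown. The lists share some genes. Bars to the right of 0 give the percent of members higher at 6 h and bars to the left the percent lower, red and orange for MR and blue for Con, with the number of measured genes in brackets and all genes in the last row. The ATF4 list has 28 of 34 genes higher on MR and 9 on Con, ribosome biogenesis has 49 of 67 lower on MR and 37 on Con, and cytosolic ribosomal proteins have none on MR.

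Clock genes called on both diets moved in the same direction. Of 11 measured core clock genes 4 rose and 3 fell on MR, against 4 and 2 on Con, with 6 shared, and the difference between diets passed in none. Arntl (chr7:113178471-113314126), which encodes BMAL1, the partner of CLOCK, had 14.7, 16.3 and 18 units at 6 h on MR, 5.87, 9.15 and 11.1 units at 3 h on MR, 11.9, 15.9 and 18.5 units at 6 h on Con and 6.97, 8.49 and 9.73 units at 3 h on Con, without overlap between hours on either diet. It rose by 0.85 on MR (standard error 0.11) and 0.81 on Con (standard error 0.11), a difference with a 95% interval of −0.28 to 0.35. The response element of ROR and REV-ERB receptors, the word TAGGTCA, stands in the window of one of its RefSeq starts, in capitals here, and in 2.97% of all genes with a promoter.
Arntl, chr7:113207533-113207555, plus strand: gcagaaagTAGGTCAgggacgga
Nr1d2, which encodes the repressor REV-ERBβ, had 6.35, 8.13 and 10.7 units at 6 h on MR, 14.1, 21.4 and 36.2 units at 3 h on MR, 6.09, 9.64 and 11.4 units at 6 h on Con and 19.8, 25.2 and 29.1 units at 3 h on Con. Hours did not overlap on either diet, and the change was −1.34 on MR and −1.4 on Con.

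Per2, a repressor that peaks around the start of the active phase, had 19.4, 22.4 and 26.6 units at 6 h on MR, 35.2, 37.7 and 44.4 units at 3 h on MR, 11.3, 22.5 and 23.9 units at 6 h on Con and 36.4, 39.7 and 42.8 units at 3 h on Con. It was lower at 6 h in every mouse of both diets than in any mouse at 3 h, with a change of −0.74 on MR and −0.93 on Con. Cry1, a repressor that peaks later, had 40.9, 46.8 and 53.1 units at 6 h on MR, 25.4, 27 and 33.3 units at 3 h on MR, 34.7, 42.7 and 46.3 units at 6 h on Con and 26.9, 29.5 and 32.1 units at 3 h on Con. On both diets every mouse at 6 h was above those at 3 h, by 0.72 on MR and 0.5 on Con. Rora, a receptor that activates Arntl, rose by 0.79 on MR and 0.51 on Con. Per1 was the core clock gene called on MR and not on Con, with −0.56 on MR (adjusted p = 0.0484) and −0.03 on Con (adjusted p = 0.946), and without m4223 and m4214 it no longer passed on MR (adjusted p = 0.0809, range over the alternatives 0.0137 to 0.0994). Clock, Cry2 and Csnk1d did not pass on either diet.

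Of 14 measured output genes 3 rose and 8 fell on MR, against 2 and 7 on Con. Tef, an activator of the D-box, changed by −0.76 on MR and −0.76 on Con, and Wee1, a cell cycle kinase, by −1.03 and −0.83. Usp2, a deubiquitinase, changed by −1.17 on MR and −0.86 on Con, and Gpcpd1, a phosphodiesterase of choline metabolism, by −1.58 and −0.92. Pdk4, which shuts down pyruvate dehydrogenase, rose by 1.73 on MR and 1.28 on Con.

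**Figure D5:**
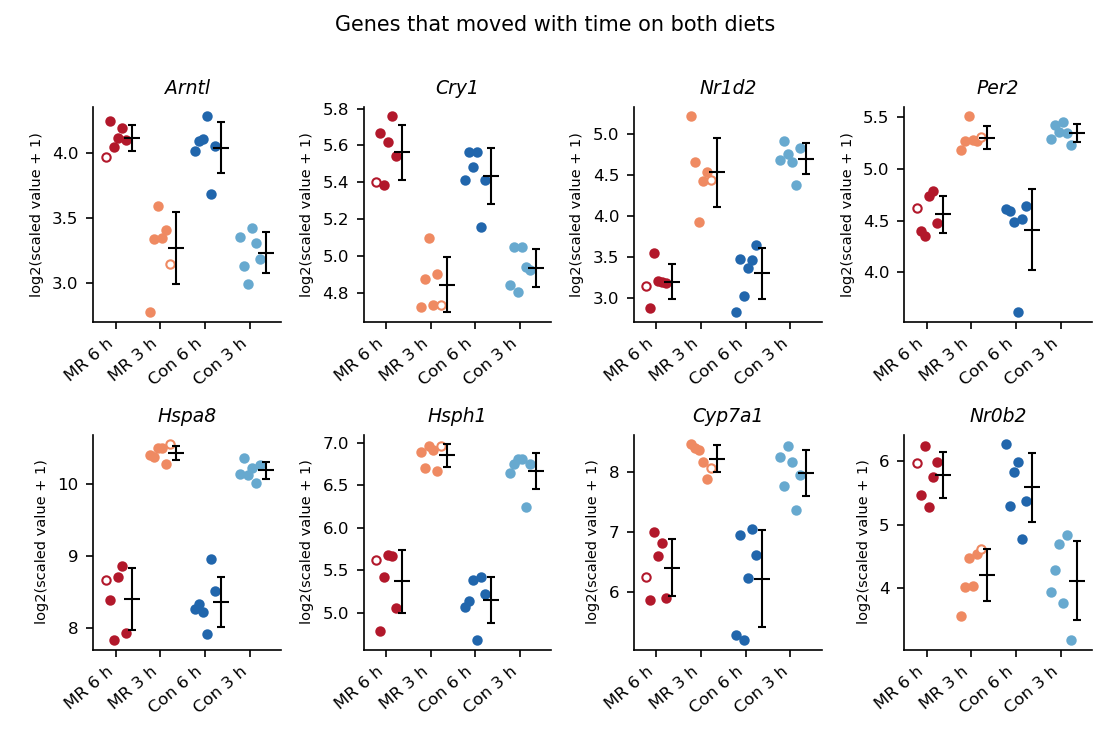
Levels of 8 genes that changed with time on both diets. Axes, points and bars are as in the plot of the 6 genes whose difference passed; the upper row holds clock genes and the lower row 2 heat shock genes and 2 genes of bile acid control. In each panel both groups at 6 h are shifted the same way from the groups at 3 h, and the 2 hollow points lie within or near their groups.

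Most heat shock genes fell on both diets. Of 16 measured genes of temperature and heat shock cycling 1 rose and 10 fell on MR, and also on Con, and the 11 were shared; without m4223 and m4214 1 rose and 9 fell on MR. Hspa8 (chr9:40801276-40805202), the constitutive Hsp70, had 227, 369.9 and 464 units at 6 h on MR, 1242, 1403 and 1507 units at 3 h on MR, 239, 313 and 495 units at 6 h on Con and 1034, 1163 and 1320.0 units at 3 h on Con. On each diet the highest mouse at 6 h had less than the lowest at 3 h, with a change of −2.04 on MR (standard error 0.16) and −1.83 on Con (standard error 0.16). Hsph1, an Hsp110 chaperone, had 26.5, 45 and 50.1 units at 6 h on MR, 101, 119 and 124 units at 3 h on MR, 24.7, 35.3 and 42 units at 6 h on Con and 75.1, 107 and 112 units at 3 h on Con, a change of −1.48 on MR and −1.52 on Con with no overlap of hours. Dnaja1, an Hsp40, changed by −1.06 on MR and −1.13 on Con, Hsp90aa1 by −0.7 and −0.8, and Chordc1, an Hsp90 cochaperone, by −0.97 and −0.87. Cirbp, the cold-inducible RNA-binding protein, was the member that rose.

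The word GAANNTTC, the core of the heat shock element that the factor HSF1 binds, was searched for after these values had been seen. It stood in 7 of the 11 matched genes of the list (63.6%), in 9.04% of all 27025 genes with a promoter and in 7.1% of the matched genes of the table. The list was put together from heat shock genes, so this share describes the choice of list and not the changes with time. The stretches below are from 3 members that fell on both diets, with the word in capitals.
Dnaja1, chr4:40722336-40722359, plus strand: agcctctaGAAAATTCtacgaggc
Hsph1, chr5:149636280-149636303, minus strand: agattctgGAAAGTTCtcctcagt
Chordc1, chr9:18292255-18292278, plus strand: tgcaaccgGAACGTTCgggaaaat

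Some chaperones of the endoplasmic reticulum fell as well. Of 28 measured genes of its unfolded protein response 0 rose and 10 fell on MR, against 0 and 13 on Con, with a median change of −0.25 on MR and −0.39 on Con. All 10 that fell on MR also fell on Con. Hspa5, which encodes BiP, the major chaperone there, had 499.8, 725 and 832 units at 6 h on MR, 977, 1213 and 1479 units at 3 h on MR, 293, 569 and 774 units at 6 h on Con and 835, 1182 and 1551 units at 3 h on Con. No mouse at 6 h reached the lowest mouse at 3 h of its diet, and the change was −0.8 on MR and −1.12 on Con. Dnajb9 changed by −0.9 on MR and −1.14 on Con, Xbp1, the transcription factor of the response, by −0.74 and −0.51, and Herpud1, of the degradation machinery, by −0.76 and −0.82. Manf changed by −0.98 on MR and −1.11 on Con and overlaps Rbm15b on its own strand.

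Ribosome biogenesis was the list with the most genes that fell. Of its 67 measured genes 0 rose and 49 fell on MR, against 0 and 37 on Con, 36 of them shared, with a median change of −0.44 on MR and −0.29 on Con; without m4223 and m4214 48 fell on MR. Nop2 (chr6:125131883-125144753), a nucleolar rRNA methyltransferase, had 13.2, 14.2 and 16.3 units at 6 h on MR, 24.3, 27.6 and 35.3 units at 3 h on MR, 12.2, 12.4 and 18.3 units at 6 h on Con and 18.9, 22.5 and 24.6 units at 3 h on Con. The hours did not overlap on either diet. Its change was −0.94 on MR (standard error 0.1) and −0.63 on Con (standard error 0.1), and the adjusted p of the difference of −0.31 was 0.705. Polr1b, a subunit of RNA polymerase I, changed by −0.67 on MR and −0.53 on Con, and Wdr43, a factor of the small subunit, by −0.82 and −0.48. Wdr12, of the large subunit, changed by −0.5 on MR and −0.41 on Con, and Ftsj3, another rRNA methyltransferase, by −0.52 and −0.36.

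Few ribosomal proteins passed. Of 71 measured cytosolic ribosomal proteins 0 rose and 0 fell on MR by limma (1 and 1 on Con), and 1 on MR had an unadjusted p under 0.05, with a median change of −0.055 on MR. Mitochondrial ribosomal proteins had 2 that rose and 6 that fell of 74, and the nuclear genes of the respiratory chain 0 and 2 of 72, below the background of all genes. Of 47 measured translation factors 3 rose and 13 fell on MR, against 0 and 10 on Con. Eif2s2, a subunit of eIF2, rose by 0.45 on MR, and its 0.13 on Con did not pass (adjusted p = 0.256). Eif2b1, a subunit of the exchange factor of eIF2, changed by −0.37 on MR and −0.24 on Con. Eif4ebp3, a relative of Eif4ebp1, moved opposite to it, by −1.39 on MR and −1.04 on Con.

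In nuclear pore and transport 0 rose and 10 fell of 44 on MR, against 2 and 8 on Con, and Xpo1, the main export receptor, changed by −0.73 on MR and −0.4 on Con. Of all genes, 14.2% fell on MR and 10.4% on Con. Among 68 splicing factors 4 rose and 13 fell on each diet, 12 shared, near the 28.1% of all genes that passed on MR. Luc7l changed by −0.47 on MR and −0.47 on Con, and Srsf7 by −0.57 and −0.39. Of 27 polyamine and nucleotide genes 1 rose and 11 fell on MR, against 0 and 8 on Con. Srm (listed as Srm_1), spermidine synthase, changed by −0.87 on MR and −0.71 on Con, Ctps, which makes CTP, by −0.93 and −0.56, and Ppat, the first enzyme of purine synthesis, by −0.43 and −0.24. Paox, which oxidises polyamines, was the member that rose on MR, by 0.61 against 0.36 on Con (adjusted p = 0.0609).

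Genes of sterol synthesis that passed were all higher at 6 h. Of 26 measured genes of cholesterol synthesis and uptake 20 rose and 0 fell on MR, against 11 and 0 on Con, and all 11 were shared. The median change was 0.88 on MR and 0.56 on Con, and without m4223 and m4214 15 rose on MR with a median of 0.89. Sc5d (chr9:42251592-42264300), a late desaturase of the pathway, had 329.7, 411 and 450.4 units at 6 h on MR, 154, 188 and 198 units at 3 h on MR, between 284 and 516 units at 6 h on Con and between 161 and 346 units at 3 h on Con. The MR groups did not overlap, the Con groups did, and the rises were 1.14 on MR and 0.84 on Con. Pmvk and Mvk, kinases of mevalonate metabolism, rose on MR by 1.33 and 1.12 and on Con by 0.98 and 0.61. Dhcr7 rose by 1.09 on MR and 0.78 on Con, and Scap, which escorts SREBP to the Golgi, by 0.59 and 0.31. No gene of the list passed the test of the difference.

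Fatty acid and triglyceride synthesis had 7 of 21 genes that rose and 0 that fell on MR, against 4 and 0 on Con, and 9 that rose without m4223 and m4214. Acly, which makes cytosolic acetyl-CoA, rose by 1.3 on MR and 0.88 on Con, and Gpam, the first step of glycerolipid synthesis, by 1.2 and 0.79. Insig2, which retains SREBP in the endoplasmic reticulum, rose by 0.9 on MR and 0.9 on Con. Pnpla3 rose by 1.86 on MR, and its 1.03 on Con did not pass (adjusted p = 0.15). For Elovl3, a fatty acid elongase, the rise was 2.27 on MR, against 1.21 on Con (adjusted p = 0.0843). Around the lipid droplet 3 genes rose and 6 fell of 19 on MR, against 1 and 4 on Con. Fitm2, which helps droplets form, changed by −1.04 on MR and −0.8 on Con, and Plin4, a droplet coat protein, by −0.81 and −0.73, whereas the coat protein Plin2 (listed as Plin2_2) rose by 0.53 on MR and 0.53 on Con. Abhd5, the coactivator of triglyceride lipase, changed on MR by −0.59, and its −0.19 on Con did not pass (adjusted p = 0.175).

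Glucose and hormone genes showed single large movers in lists that otherwise stayed near the background. Igfbp1 (chr11:7197787-7202546), an IGF-binding protein that insulin represses, had 18, 74.1 and 97.3 units at 6 h on MR, 2.02, 9.31 and 19.2 units at 3 h on MR, 14.6, 38.8 and 54.4 units at 6 h on Con and 4.98, 8.84 and 20.2 units at 3 h on Con. The ranges of the hours touched on both diets, and the rise was 2.84 on MR (standard error 0.47, adjusted p = 9.02e-05) and 1.89 on Con (standard error 0.47, adjusted p = 0.00652). Ppp1r3c, a glycogen-targeting phosphatase subunit, rose by 1.63 on MR and 1.11 on Con, while Gys2, liver glycogen synthase, changed by −0.53 and −0.67. Pfkfb1 and Pfkfb3, which set fructose-2,6-bisphosphate, changed on MR by −0.99 and −1.04 and on Con by −0.58 and −0.6. The lists had 3 genes up and 5 down of 26 for glycolysis, 3 and 3 of 19 for gluconeogenesis and glycogen, and 3 and 2 of 22 for insulin and FOXO1 on MR.

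In the growth hormone and IGF axis 2 of 15 genes rose and 2 fell on MR, against 2 and 0 on Con. Its share called on MR was near the 28.1% of all genes. Igf1, the main growth factor the liver secretes, had 182, 196 and 216 units at 6 h on MR, 212, 237 and 253 units at 3 h on MR, 189, 228 and 238 units at 6 h on Con and 184, 213 and 242 units at 3 h on Con. Only the highest of the mice on MR for 6 h reached the range of those on MR for 3 h, and the Con groups overlapped. It changed by −0.27 on MR (adjusted p = 0.00545) and changed by 0.04 on Con (adjusted p = 0.751), and the difference of −0.3 had an adjusted p of 0.468. Socs2, an inhibitor of growth hormone signalling, changed by −1.43 on MR, and its −0.67 on Con did not pass (adjusted p = 0.241). Stat5b rose by 0.68 on MR and 0.5 on Con.

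Some genes of bile acid control changed in the same direction on both diets. Cyp7a1 (chr4:6265612-6275632), the rate-limiting enzyme of bile acid synthesis, had 57.2, 84.9 and 126 units at 6 h on MR, 234, 306 and 351 units at 3 h on MR, 35.6, 85.4 and 132 units at 6 h on Con and 163, 266 and 343 units at 3 h on Con. Nr0b2 (chr4:133553376-133556686), which encodes SHP, a repressor of Cyp7a1 that bile acids induce, had 37.9, 57.5 and 74.9 units at 6 h on MR, 10.8, 18.2 and 23.6 units at 3 h on MR, 26.5, 48.3 and 76.2 units at 6 h on Con and 8.09, 16.4 and 27.7 units at 3 h on Con. Cyp7a1 was lower and Nr0b2 higher at 6 h, with no overlap of hours within a diet except between the Con groups of Nr0b2. The changes were −1.82 on MR and −1.76 on Con for Cyp7a1, with a 95% interval of −0.9 to 0.79 for the difference, and 1.58 and 1.47 for Nr0b2. Abcb11, the bile salt export pump, rose by 0.78 on MR and 0.89 on Con, and Hsd3b7 by 0.99 and 0.82. The list had 7 genes that rose and 1 that fell of 27 on MR, against 4 and 2 on Con, with 5 shared. Its share called on MR was near the 28.1% of all genes.

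Alas1 (chr9:106233455-106247954), the first enzyme of heme synthesis, had 42.4, 54.3 and 118 units at 6 h on MR, 190.2, 353 and 549.7 units at 3 h on MR, 31.9, 80.2 and 248 units at 6 h on Con and 105, 195 and 553 units at 3 h on Con. It had the largest fall on MR of the genes named, −2.43 (standard error 0.47), with separate groups on MR, and changed by −1.58 (standard error 0.47) on Con, where the groups overlapped. Nrep, a neuronal regeneration related gene, changed by −2.41 on MR and −1.46 on Con. Por, which passes electrons to cytochromes P450, changed by −1.32 on MR and −1.28 on Con, and the P450 list as a whole had 4 genes that rose and 3 that fell of 39 on MR. Cyp26a1, which breaks down retinoic acid, rose by 2.2 on MR and 1.71 on Con. Cyp2b9 and Cyp2a5 belong to families with near-identical copies that can share reads, so their values, 1.97 and −0.65 on MR, are uncertain.

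Interferon response genes that passed were all higher at 6 h on both diets. Of 26 measured genes 17 rose and 0 fell on MR, against 9 and 0 on Con, with all 9 shared, median changes of 0.56 on MR and 0.34 on Con, and 16 that rose on MR without m4223 and m4214. Isg15, a ubiquitin-like protein, had 12.1, 15.5 and 19.6 units at 6 h on MR, 3.91, 5.44 and 6.89 units at 3 h on MR, 6.25, 14.2 and 16.4 units at 6 h on Con and 4.86, 7.36 and 9.96 units at 3 h on Con. The MR groups did not overlap and the Con groups did. Isg15 rose by 1.39 on MR and 0.74 on Con, with an adjusted p of 0.645 for the difference. The RNA sensors Ddx58 and Ifih1 rose on MR by 0.87 and 0.6 and on Con by 0.61 and 0.4, and Usp18, an inhibitor of the response, by 1.36 on MR and 0.77 on Con.

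Of 26 acute phase genes 2 rose and 4 fell on MR, against 5 and 2 on Con, where 28.1% of all genes passed on MR and 19.6% on Con. Hamp (chr7:30942368-30944029), which encodes hepcidin, the hormone that limits iron uptake, had 632, 876 and 1441 units at 6 h on MR, 2062, 2851 and 3857 units at 3 h on MR, 1311, 1567 and 2495 units at 6 h on Con and 1979, 3171 and 3942 units at 3 h on Con. The MR groups were apart and the Con groups overlapped. Hamp changed by −1.66 on MR (standard error 0.22) and −0.82 on Con (standard error 0.22), and the 95% interval of the difference, −1.47 to −0.2, had an adjusted p of 0.633. Saa4 changed by −1.06 on MR and −1.16 on Con.

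Proteasome subunits moved by small amounts: 14 of 35 subunits rose and 1 fell on MR, against 4 and 1 on Con, with a median change of 0.10 on MR and 0.03 on Con. Psma1 rose by 0.28 on MR and 0.25 on Con, and Psme3, an activator subunit, changed by −0.21 and −0.22. Sqstm1, which encodes the autophagy receptor p62, rose on MR by 0.49, and its 0.19 on Con did not pass (adjusted p = 0.153), while Map1lc3b changed by −0.41 on MR and −0.28 on Con, and the autophagy list had 4 genes that rose and 6 that fell of 41 on MR. Among receptors, Adra1b, the main adrenergic receptor of mouse hepatocytes, rose by 0.91 on MR and 0.43 on Con, and Avpr1a, a vasopressin receptor, by 0.88 and 0.47, in a list with 8 of 30 genes that rose and 2 that fell on MR, against 5 and 5 on Con. Of 20 immediate early genes 4 rose and 2 fell on MR, against 4 and 0 on Con. The background for all lists of this paragraph was 28.1% of genes on MR and 19.6% on Con. Egr1 rose by 1.58 on MR (adjusted p = 0.0303) and by 2.37 on Con, but not on MR without m4223 and m4214 (adjusted p = 0.0973, range over the alternatives 0.00623 to 0.0973). Mt1, a metallothionein, changed by −1.12 on MR and −1.16 on Con and also lost its call on MR without the 2 mice (adjusted p = 0.0981, range 0.0193 to 0.106).

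Some of the largest shared changes belong to no list with a clear direction. Ndrg1 rose by 1.81 on MR and 1.5 on Con, Rnf125, a ubiquitin ligase, by 1.67 and 1.66, and Spon2, a secreted matrix protein, by 1.3 and 1.33. Trp53inp1 rose by 1.24 on MR and 0.96 on Con, and Btg1, an antiproliferative gene, by 0.98 and 0.93. Rcan1, an inhibitor of calcineurin, changed by −1.22 on MR and −1.25 on Con. Aqp8, a water channel, rose by 1.95 on MR and 1.27 on Con. The changes of Scara5 and Fmo2 were −1.52 and −1.36 on MR and −0.77 and −0.76 on Con, where that of Fmo2 passed and that of Scara5 did not.

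Other lists had these counts on MR, where 13.9% of all genes rose and 14.2% fell: fatty acid oxidation (3 rose and 4 fell of 30), the urea cycle and amino acid breakdown (9 and 6 of 47), the glucocorticoid list (2 and 2 of 15, and 2 and 0 without m4223 and m4214), chromatin regulators (5 and 4 of 49) and p53 targets (5 and 1 of 18, and 3 and 1 without the 2 mice). On Con, where 9.23% rose and 10.4% fell, fatty acid oxidation had 1 and 3 and the urea cycle list 6 and 5. The glucocorticoid list had 2 and 2 there, chromatin regulators 1 and 6, and p53 targets 3 and 0. Sgk1 and Tat, both induced by glucocorticoids, rose on MR by 0.76 and 0.71. On Con Sgk1 changed by 0.37, which passed narrowly (adjusted p = 0.0499) and not in most alternatives, and the 0.34 of Tat did not pass (adjusted p = 0.179). Of the 148 genes named, 142 passed on MR and 138 of these passed in every alternative. Most were named for their change on MR, so these counts do not describe the whole table.

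For the lists whose counts without m4223 and m4214 are not given above, these were as follows on MR. Of all 9049 genes, 1095 rose and 1106 fell on MR without these 2 mice. Amino acid transporters had 8 that rose and 1 that fell, serine and one-carbon synthesis 6 and 0, glutathione 8 and 0, and NFE2L2 targets 14 and 0. The core clock had 4 and 2, its output genes 3 and 7, and the unfolded protein response 0 and 8. Translation factors had 3 and 13, nuclear transport 0 and 8, splicing 3 and 11, and polyamine and nucleotide synthesis 1 and 10. Glycolysis had 2 and 3, bile acids 8 and 1, acute phase 2 and 4, the proteasome 12 and 1, receptors 7 and 2, and immediate early genes 3 and 1. Cytosolic ribosomal proteins remained at 0 and 0 by limma. Autophagy genes had 5 that rose and 4 that fell, and chromatin regulators 3 and 1. The urea cycle and amino acid breakdown had 10 and 5, the P450 list 3 and 3, gluconeogenesis and glycogen 4 and 3, fatty acid oxidation 3 and 3, the lipid droplet list 3 and 6, and mitochondrial ribosomal proteins 2 and 4. The insulin and FOXO1 list had 3 and 2, the growth hormone and IGF axis 2 and 2, and the respiratory chain 0 and 2.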

How the data were processed

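RNA of 24 mouse livers was read from 3′ ends (Lexogen QuantSeq, NextSeq 500), and the authors processed the reads with Lexogen's pipeline, run on Bluebee, and with CLC Genomics Workbench. The submitters' notes name GRCm38 and DESeq2 1.22.2, and the strand setting of the counting is not given in the sources used here. Both tables the authors deposited hold a score for 9049 genes: the first has whole numbers that sum to nearly the same total in every library, so it was not treated as raw reads, and the second is the first divided by 1 size factor per library, to a relative deviation of at most 5.58e-10. No table column was left unmapped to a sample (0), and the lowest mean over the 24 libraries was 3 units. Replicates are separate mice, no batch is labelled, and the lowest correlation within a group was 0.96.

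The first table was scaled by trimmed means (trimming 30% by log ratio and 5% by mean at either end) and taken as log2(value + 1). A limma 3.58.1 model (trend and robust prior, statmod 1.5.0, R 4.3.3) with the 4 group means over 24 libraries gave 6 h minus 3 h on MR, the same on Con, and the difference between these, with Benjamini-Hochberg adjustment over 9049 genes and a threshold of 0.05. No count model was used, because the values are not read counts. The code was checked on simulated data. Alternatives changed the libraries, scaling, pseudocount (0.5 and 5), a mean minimum of 10 units, the libraries in the fit and the prior.

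Named genes were the 15 largest changes per direction on MR and up to 12 for the difference, both called also without m4223 and m4214, the 10 for shared changes (all with a mean of at least 5 units), up to 5 per list over 39 lists and 14 marker lists, core clock genes, ATF4 targets the study names, and a few singled out as said in the text. The members, lists and motifs were chosen with earlier results of these data known, and the heat shock element was added after seeing the data. Lists share genes, so their counts are not independent of each other. Promoters, gene positions and older symbols came from RefSeq (GRCm38.p6) and overlaps from GENCODE. A few genes that the rule named are not reported here.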

Additional observations from a re-analysis of the deposited data

Results flagged for a closer look

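The change with time differed between MR and Con in 6 genes by the limma interaction: Trib3 by 1.429 (adjusted p = 2.051e-05), Sesn2 by 1.305 (adjusted p = 0.01025), Ikbkg by 0.7076 (adjusted p = 0.01025), Mars by 0.6958 (adjusted p = 0.03636), Eif4ebp1 by 0.599 (adjusted p = 0.03958) and Cars by 0.9864 (adjusted p = 0.04814), each on the log2 scale as MR change minus Con change.

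Among 33 genes and their 132 groups of 6 mice, 8 groups had a mouse far from the other 5 (its gap to the nearest, over the group's range, above Dixon's critical value), where about 5% are expected by chance. On MR at 6 h, m4239 had 55.14 units of Asns, with the next mouse at 26.5 units, and m4219 had 443.7 units of Cbs, with the next at 340.1 units. On MR at 3 h, m4209 had 44.38 units of Per2, with the next at 38.41 units. On Con at 6 h, m4241 had 2.082 units of Mthfd2 (next 7.047), m4238 had 31.04 units of Slc38a2 (next 39.04) and m4234 had 11.3 units of Per2 (next 21.38). On Con at 3 h, m4205 had 4.095 units of Mthfd2 (next 2.023) and m4220 had 75.07 units of Hsph1 (next 99.3). None of these is m4223 or m4214.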

How the results depend on the processing

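No change that passed for a gene named reversed in any alternative, while changes near 0 that did not pass could turn sign, such as that of Eif4ebp1 on Con. Of the genes named, 142 passed on MR and 138 did so in every alternative, 111 passed on Con and 95 did so in every alternative, and of 6 that passed for the difference 2, Trib3 and Sesn2, did wherever they were tested. Many were named for a small p on MR or a call that held without m4223 and m4214, which favours such counts. Over the whole table, 2127 of the 2544 genes called on MR passed again without those 2 mice. The count on Con was 1163 genes, 529 of them higher, when only its 12 libraries were fitted. The count for the difference was 2 without m4223 and m4214, 2 without m4238 as well, 3 among genes with a mean of at least 10 units (Ikbkg, Eif4ebp1 and Mars; Trib3 and Sesn2 were below that mean), and 3 with no trend and no robust prior (Trib3, Sesn2 and Ikbkg).

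With 1 mouse left out at a time, counts ran from 2106 to 2835 on MR (1039 to 1440 higher, 1067 to 1395 lower), 1439 to 2087 on Con (648 to 1037 higher, 789 to 1050 lower), 1102 to 1577 for both diets and 3 to 8 for the difference. The highest counts on MR, on Con and for both diets came without m4238 on Con at 6 h. The difference fell to 3 genes, Trib3, Sesn2 and Ikbkg, without any 1 of 11 mice: m4214 and m4239 on MR at 6 h, m4204, m4208, m4216 and m4223 on MR at 3 h, m4234 and m4241 on Con at 6 h, and m4205, m4217 and m4233 on Con at 3 h. It rose to 8, adding Gm38456 and Slc38a2, without m4215 on Con at 3 h. Without m4219 on MR at 6 h it was 5, with Slc38a2 and Ddit4 in place of Mars, Eif4ebp1 and Cars. The cause of these shifts was not tested. No paired analysis was possible because no mouse number is shared between groups. Read depth is unknown, so no counting interval could be given, and low genes such as Trib3 and Sesn2 move in steps of about 1 unit.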
